A study of Mus musculus with 24 samples.

Results

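Chromatin accessibility was examined at 9 genes of the NRF2 antioxidant response in mouse bone marrow-derived macrophages (BMDMs): Nfe2l2, Keap1, Bach1, Hmox1, Gclc, Gclm, Slc7a11, Txnrd1 and Srxn1. The measurement was ATAC-seq, which reads out where a transposase can reach the DNA. A consensus peak, which is a region called open in at least 1 library, was taken when it overlapped 1 of these genes or the 20 kb on either side, and each such peak was given to the nearest of the 9. This gave 153 of the 184158 consensus peaks, and 148 of them passed the low-count filter, against 174193 in all. The other 5, of which 2 lay at Gclc, 1 at Slc7a11 and 2 at Txnrd1, had too few counts to test. The peaks divided unevenly, with 40 at Slc7a11, 28 at Txnrd1, 16 at Bach1, 15 at Nfe2l2, 14 at Gclm, 13 at Hmox1, 11 at Gclc, 10 at Keap1 and 6 at Srxn1. The window rule used no measured value to take a peak, but the genes and the rule were chosen with earlier results of these data known.

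There were 24 libraries in 4 groups of 6, namely WT and AhR-KO, each unstimulated or with LPS. WT marrow came from C57BL/6J mice, and AhR-KO marrow from full-body B6.129-Ahr tm1Bra/J mice, so the cells lacked the aryl hydrocarbon receptor (AhR, a ligand-activated transcription factor) throughout differentiation. The mice were 7 to 14 weeks old and of both sexes. All marrow was grown with 10% serum, GM-CSF at 10 ng/ml and TGF-β at 2 ng/ml, conditions under which BMDMs come to resemble alveolar macrophages. LPS, a bacterial cell wall component, was given at 97 EU/ml on day 6 for 24 h, and a calcium ionophore, A23187, was then added at 5 µM for 10 min. The labels carry this treatment text on every library, so whether unstimulated cultures received the ionophore cannot be told from them.

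NRF2, encoded by Nfe2l2, is a transcription factor that is held low by KEAP1, an adaptor that feeds it to a ubiquitin ligase. Oxidants and electrophiles modify KEAP1, NRF2 accumulates, pairs with small MAF proteins and binds antioxidant response elements (AREs). BACH1 binds the same kind of element as a haem-sensitive repressor. The targets make up a defence: Slc7a11 imports cystine, Gclc and Gclm build glutathione, Txnrd1 and Srxn1 keep thioredoxin and peroxiredoxins reduced, and Hmox1 breaks down haem. In macrophages these genes are known to respond to inflammatory signals such as LPS, and AhR and NRF2 share several targets. The comparisons asked how loss of AhR and stimulation with LPS changed accessibility at these loci.

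Libraries held 8.54 to 34.6 M (mega) counts in consensus peaks, the lowest being 1 WT unstimulated library. The start-site peak of Ahr itself had means of 22.5, 13.2, 20.1 and 14.7 CPM in WT unstimulated, AhR-KO unstimulated, WT LPS, then AhR-KO LPS. CPM is the count relative to the normalised library total. No consensus peak covered the exon that the allele disrupts, so the counts do not check the deletion. All 9 macrophage markers and all 6 alveolar macrophage markers examined had a tested start-site peak, and 0 of 3 T cell markers had one. So did 3 of 3 fibroblast, 3 of 3 dendritic cell, 2 of 3 B cell, 2 of 3 erythroid, 2 of 3 epithelial and 2 of 5 neutrophil markers. Having such a peak therefore does not tell these cell types apart. Of the 3 dendritic cell markers, 1 was lower in AhR-KO without LPS and 2 with it, and of the 6 alveolar macrophage markers 3 were higher without LPS and 0 with it. Of the 9 macrophage markers 0 were called for genotype in either treatment. The 2 B cell markers with a peak gave 1 lower without LPS, and 1 lower and 1 higher with it. Among start-site peaks of all protein-coding genes, 2.28% were called higher and 4.71% lower without LPS, and 1.92% and 6.3% with it. Flt3, a dendritic cell marker, was lower by log2 fold changes of -1.16 and -1.29 without and with LPS. Of 3 mast cell markers only Kit had a start-site peak, and it was lower by -1.21 and -1.24. Summed over the 3 dendritic cell markers, CPM ran from 25.7 to 34.5 in WT unstimulated, 26.6 to 32.5 in AhR-KO unstimulated, 28.3 to 45.2 in WT LPS and 20.01 to 25.9 in AhR-KO LPS. Alveolar macrophage markers summed to 52.2 to 58.2, 68.1 to 84.0, 45.5 to 53.7 and 51.5 to 64.7 in the same order. The part of these differences in the genotype results below was not tested, and in bulk libraries a change in the share of cells that are open cannot be told apart from a change in accessibility per cell.

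Sequences at 8 peaks are shown because the results below turn on them: 3 upstream of Hmox1, 2 peaks that were higher with LPS in Slc7a11 and Txnrd1, 2 that were lower in AhR-KO in the same genes, and 1 that was higher with LPS in Bach1. Each is the central 300 bases of the peak, 5′ to 3′ on the + strand of mm10. Capitals mark matches on either strand to an ARE core (TGACNNNGC, bound by NRF2 or BACH1 with small MAF proteins), an AP-1 site (TGANTCA) or a dioxin response element (DRE) core (GCGTG, the core bound by AhR with its partner ARNT). An ARE core and an AP-1 site can share bases. The first 3 sequences, from Hmox1, lie 9.6, 7.3 and 4.0 kb upstream of its transcription start site (TSS).
Hmox1 distal, chr8:75083869-75084168: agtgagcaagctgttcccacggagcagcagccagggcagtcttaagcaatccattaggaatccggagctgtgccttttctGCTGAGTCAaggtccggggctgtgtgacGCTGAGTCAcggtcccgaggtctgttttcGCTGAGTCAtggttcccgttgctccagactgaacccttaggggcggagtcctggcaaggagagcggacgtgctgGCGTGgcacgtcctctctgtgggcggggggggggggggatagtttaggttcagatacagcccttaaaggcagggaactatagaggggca
Hmox1 middle, chr8:75086137-75086436: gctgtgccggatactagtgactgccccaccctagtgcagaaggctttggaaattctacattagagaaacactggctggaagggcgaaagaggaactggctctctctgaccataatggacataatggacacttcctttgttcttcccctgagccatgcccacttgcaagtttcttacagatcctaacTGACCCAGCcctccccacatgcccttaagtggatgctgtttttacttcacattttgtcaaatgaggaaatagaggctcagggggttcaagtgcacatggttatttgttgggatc
Hmox1 proximal, chr8:75089495-75089794: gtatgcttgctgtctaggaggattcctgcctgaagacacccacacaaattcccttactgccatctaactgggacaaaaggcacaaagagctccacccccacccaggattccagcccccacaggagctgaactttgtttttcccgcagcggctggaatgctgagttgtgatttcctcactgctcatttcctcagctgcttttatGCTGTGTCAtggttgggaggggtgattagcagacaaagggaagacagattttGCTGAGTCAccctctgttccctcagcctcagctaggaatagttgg
The next, from Slc7a11, are intronic and lie 41 and 55 kb into the gene.
Slc7a11 first, chr3:50402514-50402813: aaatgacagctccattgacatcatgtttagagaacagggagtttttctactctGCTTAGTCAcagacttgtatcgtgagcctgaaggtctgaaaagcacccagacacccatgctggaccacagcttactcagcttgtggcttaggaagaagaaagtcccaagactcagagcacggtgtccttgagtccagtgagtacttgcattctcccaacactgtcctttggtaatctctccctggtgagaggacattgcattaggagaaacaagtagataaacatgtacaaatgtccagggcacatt
Slc7a11 second, chr3:50388453-50388752: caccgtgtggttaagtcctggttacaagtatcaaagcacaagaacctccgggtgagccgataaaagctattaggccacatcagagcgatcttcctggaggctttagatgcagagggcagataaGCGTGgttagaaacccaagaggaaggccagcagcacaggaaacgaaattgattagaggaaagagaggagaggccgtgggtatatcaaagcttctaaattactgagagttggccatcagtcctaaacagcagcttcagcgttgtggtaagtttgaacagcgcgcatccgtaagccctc
The pair from Txnrd1 are intronic at 9.6 and 17.9 kb from its TSS, and the last is intronic in Bach1 at 26.1 kb.
Txnrd1 first, chr10:82843429-82843728: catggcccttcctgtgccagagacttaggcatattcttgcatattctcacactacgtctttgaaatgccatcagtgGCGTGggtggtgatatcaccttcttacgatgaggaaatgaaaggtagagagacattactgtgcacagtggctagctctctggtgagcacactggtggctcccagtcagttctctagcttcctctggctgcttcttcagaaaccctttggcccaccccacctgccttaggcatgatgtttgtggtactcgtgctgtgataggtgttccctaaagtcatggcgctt
Txnrd1 second, chr10:82851735-82852034: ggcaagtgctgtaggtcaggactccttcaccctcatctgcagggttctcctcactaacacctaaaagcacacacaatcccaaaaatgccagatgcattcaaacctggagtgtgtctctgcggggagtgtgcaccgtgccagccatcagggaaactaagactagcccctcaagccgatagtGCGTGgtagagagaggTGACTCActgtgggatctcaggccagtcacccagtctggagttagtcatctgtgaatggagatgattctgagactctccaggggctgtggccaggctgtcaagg
Bach1, chr16:87724892-87725191: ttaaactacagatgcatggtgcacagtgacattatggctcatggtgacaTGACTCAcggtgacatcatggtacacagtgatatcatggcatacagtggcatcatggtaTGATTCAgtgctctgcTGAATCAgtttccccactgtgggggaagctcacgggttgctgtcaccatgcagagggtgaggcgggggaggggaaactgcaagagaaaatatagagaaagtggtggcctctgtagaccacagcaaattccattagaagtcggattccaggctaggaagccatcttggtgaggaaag

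The distal Hmox1 window held 3 ARE cores, each sharing bases with 1 of its 3 AP-1 matches, and 1 DRE core. The middle Hmox1 window held 1 ARE core and the proximal one 2, of which 1 shared bases with an AP-1 match. In Slc7a11 the window 41 kb into the gene held 1 ARE core, and the window at 55 kb held 1 DRE core. The Txnrd1 window at 9.6 kb held 1 DRE core, the one at 17.9 kb held 1 AP-1 and 1 DRE match, and the Bach1 window held 3 AP-1 matches. Over the 148 tested peaks of the 9 genes, 21 windows (14.2%) held an ARE core, 24 (16.2%) an AP-1 match and 31 (20.9%) a DRE core. Among 174106 tested peaks on placed chromosomes, the shares for windows of the same length were 12.75%, 18.13% and 16.3%. A κB-like motif (GGGANTTCC) was also searched for, and it was in 1 of the 148 windows against 1.89% of all. Of the 55 peaks that were higher with LPS in WT, 12 (21.8%) held an ARE core and 14 (25.5%) an AP-1 match. Of the 8 that were lower in unstimulated AhR-KO, 4 held a DRE core and 0 an ARE core, and of the 8 that were lower in AhR-KO with LPS, 2 and 0 did. These are matches of letters and do not show binding.

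A peak was called a differentially accessible region (DAR) when its edgeR quasi-likelihood test gave an adjusted p of at most 0.05 over all tested peaks and it changed by at least 1.5-fold. Without stimulation, 16 of the 148 peaks (10.8%) were higher and 8 (5.41%) lower in AhR-KO than in WT, against 9.95% higher and 12.6% lower among all tested peaks. With LPS, 23 (15.5%) were higher and 8 (5.41%) lower in AhR-KO, against 13.4% and 13.1%. LPS itself moved far more of them: in WT, 55 (37.2%) were higher and 14 (9.46%) lower, against 25.4% and 21.6%, and in AhR-KO 66 (44.6%) were higher and 14 (9.46%) lower, against 27.3% and 21.5%. In WT the share higher with LPS was 61.5% at Slc7a11, 46.2% at Txnrd1 and 40% at Nfe2l2. At the other genes it ran from 11.1% (Gclc) to 25% (Bach1), under that of all peaks. The excess of higher peaks in WT thus lay mainly at Slc7a11 and Txnrd1. In AhR-KO the share was 66.7% at Slc7a11, 57.7% at Txnrd1 and 11.1% to 40% at the others. The interaction, the genotype difference under LPS less that without it, called 8 (5.41%) higher and 2 (1.35%) lower, against 5.83% and 4.58%. These shares hold for TMM scaling of library size (trimmed mean of M values). With RLE scaling (relative log expression, size factors from median ratios), 20 of the 148 were higher and 6 lower for genotype without LPS, and 8 higher and 4 lower for the interaction. Over all tested peaks the same change of scaling moved 17332 higher and 22015 lower to 20676 and 19366 for genotype without LPS, and 10147 higher and 7985 lower to 8660 and 9574 for the interaction, so the direction that led among all peaks depended on the scaling in both. The groups compared did not overlap at 26 and 30 of the 148 peaks for genotype without and with LPS and at 70 and 83 for LPS in WT and AhR-KO, against 21%, 19.6%, 38.7% and 45.6% of all. The median log2 fold change over the 148 peaks was 0.03 and 0.13 for genotype without and with LPS, and 0.26 and 0.44 for LPS in WT and AhR-KO. The medians over all tested peaks were -0.02, 0.02, -0.01 and 0.05. The genotype comparison and the LPS comparison in the same cultures share libraries, so their counts are not independent.

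**Figure D1:**
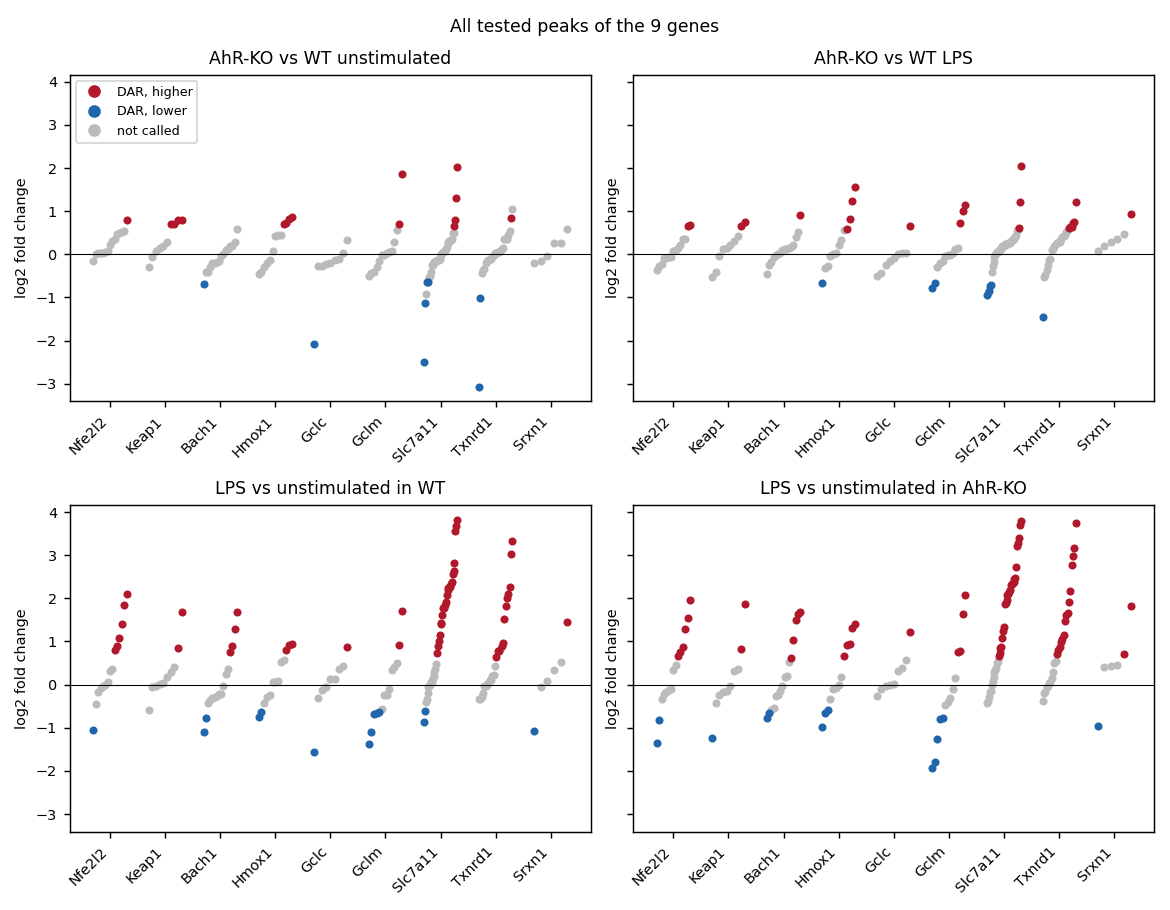
Each point is 1 tested peak of the 9 genes, ordered within a gene by its log2 fold change (vertical axis), in the 4 comparisons of group pairs; red points are DARs that were higher, blue points DARs that were lower and grey points were not called. The LPS panels hold 55 and 66 red points, most of them at Slc7a11 and Txnrd1, and the genotype panels hold 16 and 23.

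The start sites were described by their TSS peaks. A TSS peak was the peak over the gene start on its strand in GENCODE, and 8 of the 9 genes had one. None of the 8 was a DAR in any of the 5 comparisons, where 6.99%, 8.22%, 12.2%, 17.3% and 3.8% of 13122 TSS peaks of protein-coding genes were called in either direction. Those shares of 8 peaks come to few calls or none, so nothing particular to these genes is read from the count. At an unadjusted p under 0.05, edgeR counted 2, 3, 4, 6 and 0 of the 8 in the same order, all of them changed by less than 1.5-fold, and DESeq2 called 0 in each comparison. The deepest TSS peaks per length in WT unstimulated were those of Gclm (49.2 CPM per kb), Gclc (42.3) and Nfe2l2 (41), and the shallowest was that of Keap1 (8.29).

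Among the regulators, the Nfe2l2 TSS peak (chr2:75703416-75705517, shared with the start of E030042O20Rik, a gene on the other side) had a median of 86.0 CPM in WT unstimulated, with a lowest of 82.3 and a highest of 91.5. The medians were 87.9 (80 to 94.1) in AhR-KO unstimulated, 80.7 (75.2 to 89.0) in WT LPS and 79.3 (67.9 to 86.4) in AhR-KO LPS. All 4 groups overlapped, and the log2 fold change for genotype without LPS was 0.03 ± 0.05 (SE). The Keap1 TSS peak (chr9:21237219-21239620) had medians of 19.7, 22.4, 24.3 and 28.7 CPM in WT unstimulated, AhR-KO unstimulated, WT LPS, then AhR-KO LPS. Its log2 fold changes with LPS were 0.29 ± 0.07 in WT and 0.31 ± 0.07 in AhR-KO (edgeR, adjusted p = 0.000932 and 0.000291). The Bach1 TSS peak (chr16:87698588-87700408) ran the other way, with medians of 60.5, 52.5, 50.4 and 42.9 CPM and log2 fold changes with LPS of -0.29 ± 0.05 and -0.28 ± 0.05. All WT unstimulated values of the Bach1 peak (57.9 to 64.1 CPM) lay above all AhR-KO unstimulated ones (48.9 to 57.4), a log2 difference of -0.20 ± 0.05.

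Among the targets, the TSS peak of Srxn1, which reactivates over-oxidised peroxiredoxins (chr2:152104700-152106073), came closest to the threshold. It ran from 37.7 to 43.3 CPM in WT unstimulated and 37.8 to 41.7 in AhR-KO unstimulated, and from 47.6 to 53.0 and 50.4 to 57.0 with LPS. The LPS groups lay wholly above the unstimulated ones, with log2 fold changes of 0.33 ± 0.05 in WT and 0.45 ± 0.05 in AhR-KO (edgeR, adjusted p = 1.78e-07 and 1.72e-10). The Hmox1 TSS peak (chr8:75092724-75093997) had medians of 20.8, 19.5, 21.4 and 22 CPM, and the Slc7a11 one (chr3:50442842-50444474) 30.2, 30.6, 33.5 and 33.8, with overlapping genotypes in both. The Gclm TSS peak (chr3:122245011-122246342) had medians of 63.1, 64.3, 61.6 and 61.0 CPM. At Gclc, the catalytic subunit of the same enzyme, the TSS peak (chr9:77754462-77755215) had medians of 32.4, 30.1, 29.1 and 24.0, with a log2 difference of -0.25 ± 0.06 between genotypes with LPS. Txnrd1 had no peak within 1 kb of its gene start. The peak chr10:82858383-82861106, 25.8 kb into the gene, covered 6 of its 8 annotated transcript starts and the start of Gm38560. It was singled out after its values were seen, and its medians were 65.4, 68.9, 64.9 and 59.3 CPM, with no call in any comparison.

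**Figure D2:**
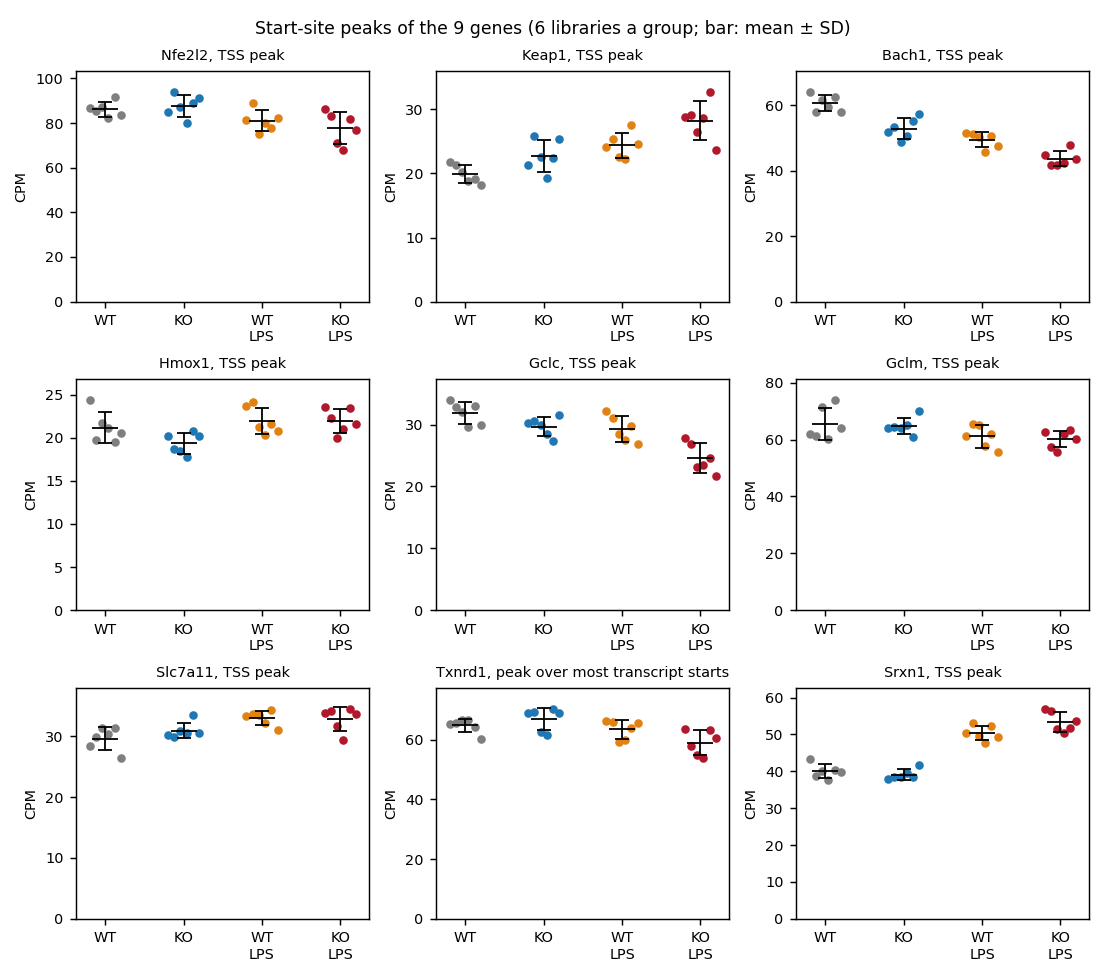
Points are the CPM of each library in the TSS peak of 8 genes, and for Txnrd1 in the peak over most transcript starts, for WT and AhR-KO (KO) without and with LPS; the long bar is the mean and the short bars ± 1 SD of 6 libraries. The groups sit close together at every gene, the largest step being that of Srxn1, from means of 40 and 39.1 without LPS to 50.4 and 53.5 with it.

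LPS raised accessibility at most peaks of Slc7a11, the cystine importer. Of its 39 tested peaks, 24 (61.5%) were higher with LPS in WT and 26 (66.7%) in AhR-KO, against 25.4% and 27.3% of all tested peaks. Lower were 2 (5.13%) and 0, against 21.6% and 21.5%. GENCODE gives this gene a span of 551 kb because of long transcripts, whereas RefSeq gives chr3:50364936-50499087. Within the RefSeq gene, 20 of 26 tested peaks were higher in WT and 21 in AhR-KO, with median log2 fold changes of 1.77 and 2.01. In the other 13 peaks, 4 and 5 were higher and the medians were 0.20 and 0.33. Summed over the 38 peaks in the GENCODE body, CPM was 202 ± 4.46 (SD, n = 6) in WT unstimulated, against 196 ± 8.89 in AhR-KO unstimulated, and 339 ± 4.87 and 371 ± 25.3 with LPS.

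The peak with the smallest p at Slc7a11 was intronic, 41 kb into the gene (chr3:50402253-50403075), and its window is the first Slc7a11 sequence shown. In WT it had 6.86, 8.70 and 10.6 CPM as lowest, median and highest without LPS, and 40.8, 43.3 and 47.0 with it. In AhR-KO the values were 9.14, 9.78 and 12.1 without LPS and 42.9, 45.7 and 47.3 with it. Each LPS group lay far above its unstimulated group, with log2 fold changes of 2.27 ± 0.08 in WT (edgeR, adjusted p = 5.2e-24) and 2.15 ± 0.07 in AhR-KO (adjusted p = 3.31e-24). The genotypes overlapped in both treatments, at 0.18 ± 0.08 and 0.06 ± 0.07. The steepest rise in the RefSeq gene, picked after its values were seen, was at chr3:50396788-50397325, intronic at 46.6 kb. There the highest unstimulated value in WT was 0.736 CPM and the lowest LPS value 6.68, and the log2 fold changes were 3.82 ± 0.18 and 3.79 ± 0.16.

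**Figure D3:**
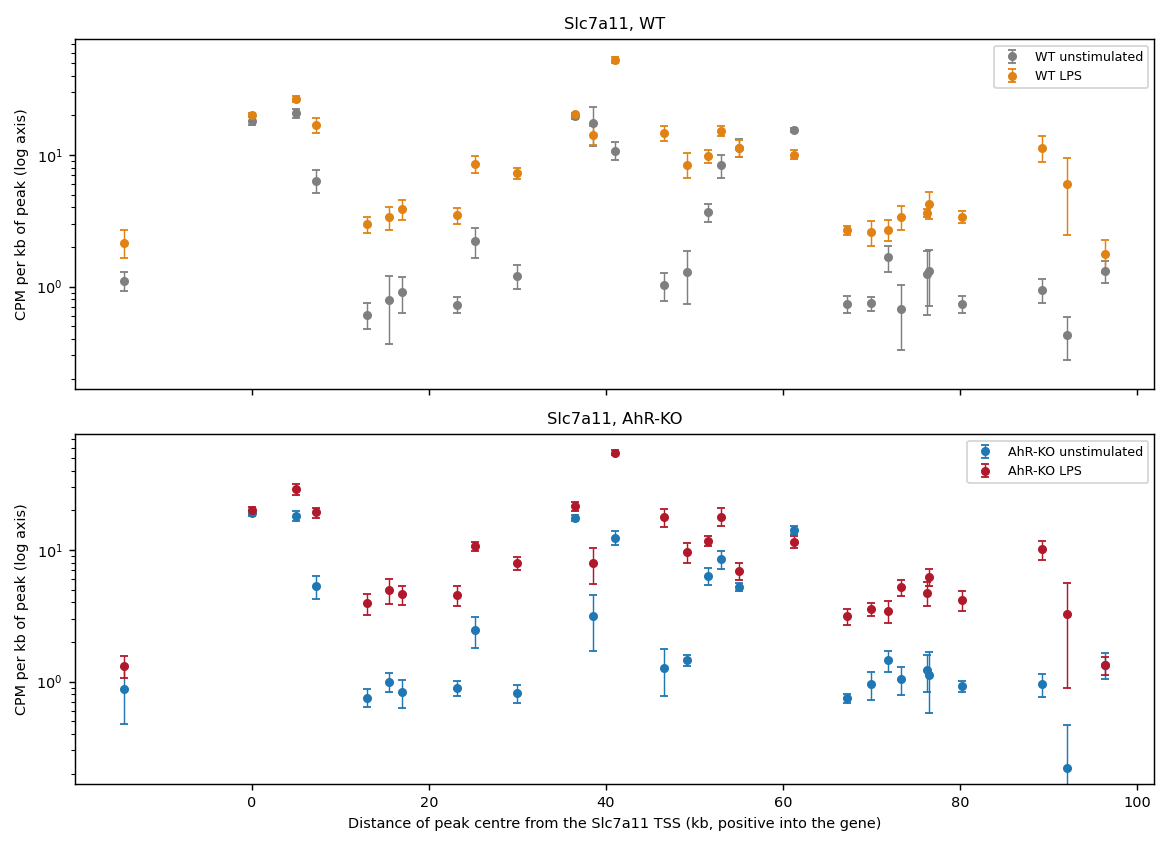
CPM per kb of peak (log axis) is plotted against the distance of the peak centre from the Slc7a11 TSS in kb, positive into the gene, for WT (top) and AhR-KO (bottom); points are means and bars ± 1 SD of 6 libraries, and 1 lower bar at 92.1 kb runs off the axis. The TSS peak at 0 changed little, while LPS points lie above unstimulated ones at most peaks inside the gene, up to 52.8 CPM per kb in WT at 41 kb.

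Txnrd1, the cytosolic thioredoxin reductase, was the other gene with many LPS DARs. Of its 26 tested peaks, 12 (46.2%) were higher in WT and 15 (57.7%) in AhR-KO, against 25.4% and 27.3% of all tested peaks. In both genotypes 0 were lower, against 21.6% and 21.5%. The clearest was intronic at 17.9 kb (chr10:82851546-82852224), shown above as the second Txnrd1 sequence. It had 0.726, 1.01 and 1.16 CPM in WT unstimulated and 0.297, 0.994 and 1.09 in AhR-KO unstimulated, and 8.25, 9.57 and 11.3 in WT LPS and 10.4, 11.5 and 13.5 in AhR-KO LPS. Log2 fold changes were 3.34 ± 0.15 in WT and 3.75 ± 0.15 in AhR-KO (edgeR, adjusted p = 5.83e-20 and 3.92e-22), with no overlap between LPS and unstimulated groups. In the deposited peak lists, which were called on each library alone, this peak was found in 0 of 12 unstimulated libraries and 12 of 12 LPS libraries.

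At Nfe2l2, counting the gene and its flanks, more peaks were higher than lower with LPS. LPS raised 6 of 15 tested peaks in WT and 6 in AhR-KO (40% each, against 25.4% and 27.3% of all tested peaks). It lowered 1 and 2 (6.67% and 13.3%, against 21.6% and 21.5%). The intronic peak 15.4 kb from the TSS (chr2:75688834-75689710) had medians of 5.63 CPM in WT unstimulated (4.89 to 6.12), 7.84 in AhR-KO unstimulated (7.36 to 8.73), 14.9 in WT LPS (13.4 to 17.4) and 18.8 in AhR-KO LPS (18.4 to 21.6). No pair of groups overlapped, and LPS raised it by 1.41 ± 0.08 (log2 scale) in WT and 1.29 ± 0.07 in AhR-KO (edgeR, adjusted p = 8.45e-18 and 8.93e-18). The genotype differences of 0.48 ± 0.08 and 0.36 ± 0.07 were under 1.5-fold. At Bach1, 4 of 16 peaks were higher and 2 lower with LPS in WT, and 5 and 2 in AhR-KO. Its intronic peak at 26.1 kb (chr16:87724540-87725544), whose window holds the AP-1 matches above, went from medians of 6.52 and 7.10 CPM to 20.6 and 23.3. The log2 fold changes were 1.68 ± 0.07 and 1.64 ± 0.07, and each LPS group lay above its unstimulated group. Keap1, with 10 peaks, had 2 higher (20%) and 0 lower in WT and 2 higher (20%) and 1 lower (10%) in AhR-KO. These shares were all under those of all tested peaks. Its intronic peak at 3.9 kb (chr9:21235123-21235773) rose from medians of 3.53 and 3.34 to 11.3 and 12.3 CPM, by 1.67 ± 0.11 and 1.86 ± 0.10.

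At the glutathione genes LPS DARs were of both directions at Gclm and few at Gclc. Among all tested peaks 25.4% were higher and 21.6% lower in WT, and 27.3% and 21.5% in AhR-KO. Of 14 tested peaks at Gclm, the modifier subunit, 2 (14.3%) were higher and 5 (35.7%) lower in WT, with 4 (28.6%) and 5 (35.7%) in AhR-KO. The intronic Gclm peak at 5.6 kb (chr3:122250904-122251493) fell from medians of 5.12 and 6.06 CPM to 2.41 and 2.63, with log2 fold changes of -1.10 ± 0.13 and -1.27 ± 0.13. Of 9 tested peaks at Gclc, 1 (11.1%) was higher and 1 (11.1%) lower in WT, with 1 (11.1%) and 0 in AhR-KO. The Gclc peak 9.5 kb upstream (chr9:77744855-77745148) was higher with LPS by 0.87 ± 0.26 and 1.22 ± 0.23, at levels of at most 1.81 CPM. At Srxn1, with 6 peaks, 1 (16.7%) was higher and 1 (16.7%) lower in WT, with 2 (33.3%) and 1 (16.7%) in AhR-KO. The peak 3.2 kb upstream of Srxn1 (chr2:152102171-152102520) went from medians of 0.741 and 1.26 to 2.06 and 3.86 CPM, by 1.45 ± 0.20 and 1.82 ± 0.18. The peak 10.2 kb downstream of its start (chr2:152115256-152116173) fell by 1.08 and 0.96 on the log2 scale.

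Hmox1, which encodes the inducible haem oxygenase, had both directions within a short stretch. Mouse Hmox1 is known to carry upstream enhancers with repeated AREs that NRF2 and BACH1 share. The peak with 3 ARE cores, 9.6 kb upstream (chr8:75083737-75084300), was singled out after its values were seen, for its sequence, and moved little: its medians were 13.7, 14.1, 13.9 and 14.3 CPM in WT unstimulated, AhR-KO unstimulated, WT LPS, then AhR-KO LPS. Its 4 log2 differences ran from -0.01 ± 0.08 to 0.08 ± 0.08, none of them called. The peak 4.0 kb upstream (chr8:75089177-75090112) moved more. It had 17, 17.9 and 19.3 CPM in WT unstimulated and 25, 29.4 and 32.9 in AhR-KO unstimulated, so that all AhR-KO libraries lay above all WT ones. The log2 difference was 0.70 ± 0.07 (edgeR, adjusted p = 9e-11). With LPS the values were 13.6, 14.4 and 16.2 in WT, and AhR-KO had 16.7, 18.4 and 20.6, again without overlap, but the difference of 0.34 ± 0.06 was under 1.5-fold. LPS lowered this peak by 0.66 on the log2 scale in AhR-KO (adjusted p = 1.8e-11) and changed it by -0.30 ± 0.07, not called, in WT. The interaction was called at 0 of the 13 Hmox1 peaks, where it ran from -0.36 to 0.83. Among all tested peaks 5.83% were called higher and 4.58% lower. A dependence of the genotype differences on LPS was therefore not shown at any Hmox1 peak.

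The peak 7.3 kb upstream (chr8:75085942-75086632) was the deepest of the locus per length, at 36.8 CPM per kb in WT unstimulated, against 50.1 in AhR-KO unstimulated. LPS lowered it, from medians of 24.5 CPM (22.2 to 29.1) to 14.3 (14 to 17.4) in WT and from 35 (31.8 to 36.5) to 17.5 (14.9 to 19.9) in AhR-KO. The log2 fold changes were -0.74 ± 0.08 and -0.98 ± 0.07 (edgeR, adjusted p = 9.32e-11 and 2.72e-14), and neither pair of groups overlapped. Toward the end of the gene the direction of the LPS change was the opposite. The peak at 8.5 kb (chr8:75100587-75103648, over the last bases of the gene, within its 3′ UTR, and the sequence beyond) had 2.44, 3.39 and 4.07 CPM in unstimulated WT and 4.07, 5.22 and 9.36 in unstimulated AhR-KO. With LPS it had 4.67, 6.47 and 8.48 in WT, against 12.6, 13.6 and 20.9 in AhR-KO. AhR-KO LPS lay above the other 3 groups, and the peak was a DAR for genotype in both treatments (0.86 ± 0.20 and 1.24 ± 0.16) and for LPS in both genotypes (0.94 ± 0.19 and 1.32 ± 0.17). An intronic peak at 4.9 kb (chr8:75098466-75098655) had log2 differences of 0.82 ± 0.26 and 0.82 ± 0.19 for genotype, and an exonic one at 6.2 kb (chr8:75099547-75100012) 0.73 ± 0.29 and 1.56 ± 0.22. Both were weak, at most 2.96 CPM in any library. They were called in 1 and 3 of 6 AhR-KO LPS libraries and 0 of 6 in each other group. The unstimulated call at the exonic peak was lost without any 1 of 6 libraries, WT replicates 1, 3 and 4 and AhR-KO replicates 1 to 3, where the difference was 0.52 to 0.76 (edgeR, adjusted p = 0.0512 to 0.151). Of the 13 peaks at Hmox1, 4 (30.8%) were higher and 0 lower in AhR-KO without LPS, against 9.95% and 12.6% of all tested peaks. With LPS, 4 (30.8%) were higher and 1 (7.69%) lower, against 13.4% and 13.1%.

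**Figure D4:**
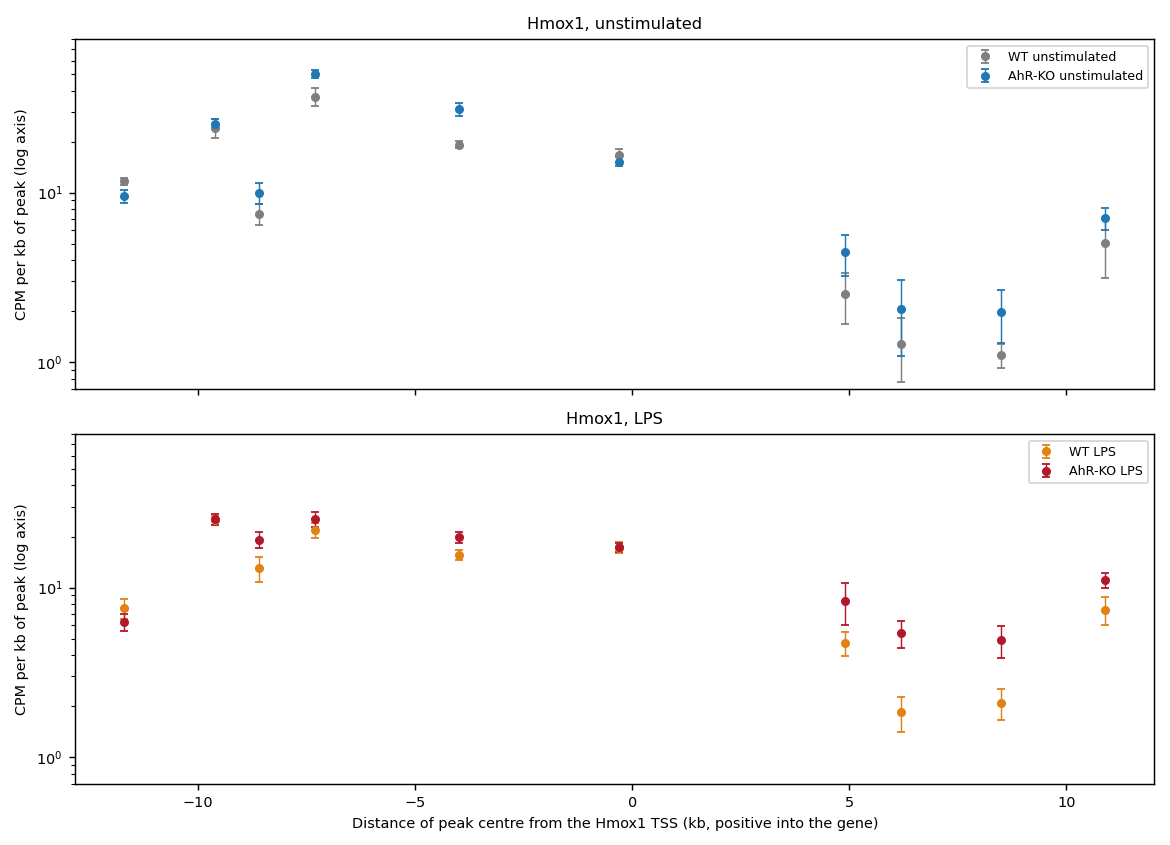
CPM per kb of peak (log axis) is plotted against distance from the Hmox1 TSS in kb, positive into the gene, without LPS (top) and with LPS (bottom); points are means and bars ± 1 SD of 6 libraries. AhR-KO points lie above WT at -7.3 and -4.0 kb without LPS, nearly meet WT at -9.6 and -0.3 kb, and lie above WT from 4.9 to 8.5 kb most clearly with LPS.

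For genotype, 4 peaks were lower in AhR-KO in both treatments (2.7% of the 148, against 6.95% of all tested peaks), all in introns of Txnrd1 or Slc7a11. The largest difference was at Txnrd1, 9.6 kb into the gene (chr10:82843350-82843808), the first Txnrd1 sequence, with its 1 DRE core. It had 1.16, 3.86 and 4.03 CPM in WT unstimulated and 0.297, 0.349 and 0.571 in AhR-KO unstimulated, with no overlap. With LPS it had 1.46, 3.15 and 5.44 in WT, against 0.837, 1.22 and 1.54 in AhR-KO, which overlapped narrowly. The log2 differences were -3.06 ± 0.34 and -1.45 ± 0.26 (edgeR, adjusted p = 2.8e-08 and 5.12e-05). A peak was called there in 5 of 6 WT unstimulated libraries and 0 of 6 AhR-KO ones, and with LPS in 6 of 6 and 3 of 6.

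In Slc7a11 the short peak at 38.5 kb (chr3:50405095-50405231) had 1.37, 2.65 and 3.47 CPM in WT unstimulated against 0.127, 0.394 and 0.695 in AhR-KO unstimulated. With LPS the values were 1.47, 1.94 and 2.47 against 0.768, 1.05 and 1.71, which overlapped. The log2 differences were -2.50 ± 0.26 and -0.84 ± 0.21, and its central window held none of the 4 motifs. In the lists of single libraries this peak was called in only 1 of 6 WT unstimulated libraries and 0 of 6 in each other group. The peak at 55 kb (chr3:50388241-50388965), the second Slc7a11 sequence with its DRE core, did not overlap between genotypes in either treatment. Its values were 6.40, 8.23 and 9.97 CPM against 3.38, 3.82 and 4.17 without LPS, and 7.03, 8.25 and 10.4 against 4.12, 4.98 and 6.15 with LPS. The differences were -1.13 ± 0.12 and -0.73 ± 0.11 (edgeR, adjusted p = 6.62e-10 and 8.63e-07), and the value for LPS in WT was -0.01 ± 0.11, not called. Both peaks lie within the RefSeq gene, where 20 of 26 tested peaks were higher with LPS in WT and 21 in AhR-KO. Among all tested peaks 25.4% and 27.3% were. The last, 136.2 kb from the TSS and outside the RefSeq gene (chr3:50306983-50307851), differed by -0.63 ± 0.20 and -0.93 ± 0.16, and its unstimulated call was lost by falling under 1.5-fold with DESeq2 (-0.57), with RLE scaling (-0.57), without AhR-KO unstimulated replicate 1 (-0.57) and without WT unstimulated replicate 2 (-0.58).

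Of the 148 peaks, 11 (7.43%, against 5.08% of all) were higher in AhR-KO in both treatments: 3 each at Hmox1 and Slc7a11, 2 at Keap1 and 1 each at Nfe2l2, Gclm and Txnrd1. The largest was the intronic Slc7a11 peak at 209.6 kb (chr3:50233699-50234401, outside the RefSeq gene). It had 0.462, 0.857 and 0.931 CPM against 2.19, 3.17 and 4.70 without LPS, and 0.201, 0.611 and 0.879 against 1.67, 2.40 and 3.70 with LPS. The genotypes were fully separate, by 2.02 ± 0.23 and 2.05 ± 0.23 on the log2 scale, and the peak was called in 0 of 12 WT and 12 of 12 AhR-KO libraries. The Slc7a11 peak at 380.1 kb (chr3:50063197-50063839) was separate too, by 1.31 ± 0.17 and 1.22 ± 0.16, with medians of 2.75 and 6.93 CPM without LPS. At the third Slc7a11 peak, over an exon with UTR sequence in GENCODE at 73.3 kb (chr3:50369882-50370735), the differences of 0.64 ± 0.26 and 0.61 ± 0.16 were each lost when a single library was left out. Without LPS this held for WT replicates 1, 2, 4 and 6 and AhR-KO replicates 2, 4 and 5 (0.47 to 0.66, adjusted p = 0.0634 to 0.149), and with LPS for WT replicates 1, 2 and 6 and AhR-KO replicate 5 (0.53 to 0.58, under 1.5-fold).

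The Txnrd1 peak 82.9 kb from its start, beyond the gene's end (chr10:82916211-82917394), rose with both factors. Its values were 1.98, 2.61 and 3.02 CPM in unstimulated WT and 3.97, 4.20 and 6.57 in unstimulated AhR-KO. With LPS they were 7.67, 10.7 and 11.6 in WT, against 14.2, 17.6 and 19.9 in AhR-KO. No groups overlapped, and the differences were 0.85 ± 0.14 and 0.76 ± 0.10 for genotype and 2.01 ± 0.13 and 1.92 ± 0.11 for LPS. The intronic Nfe2l2 peak at 23.7 kb (chr2:75680880-75681058) behaved alike at a lower level, with medians of 0.559, 1.08, 2.42 and 4.13 CPM and genotype differences of 0.80 ± 0.20 and 0.66 ± 0.13. It was called in 1 of 6 AhR-KO LPS libraries and 0 of 6 in each other group. At Keap1, the peak over the start of Gm16754 (chr9:21224809-21225622) had medians of 5.87, 9.57, 10.3 and 17.3 CPM and differed by 0.69 ± 0.09 and 0.66 ± 0.08, and the one inside that gene (chr9:21227513-21228113) by 0.81 ± 0.16 and 0.75 ± 0.14. Both lie downstream of Keap1, so they belong to Keap1 by distance only. The Keap1 set also includes the start and body of S1pr5, a neighbouring receptor gene.

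**Figure D5:**
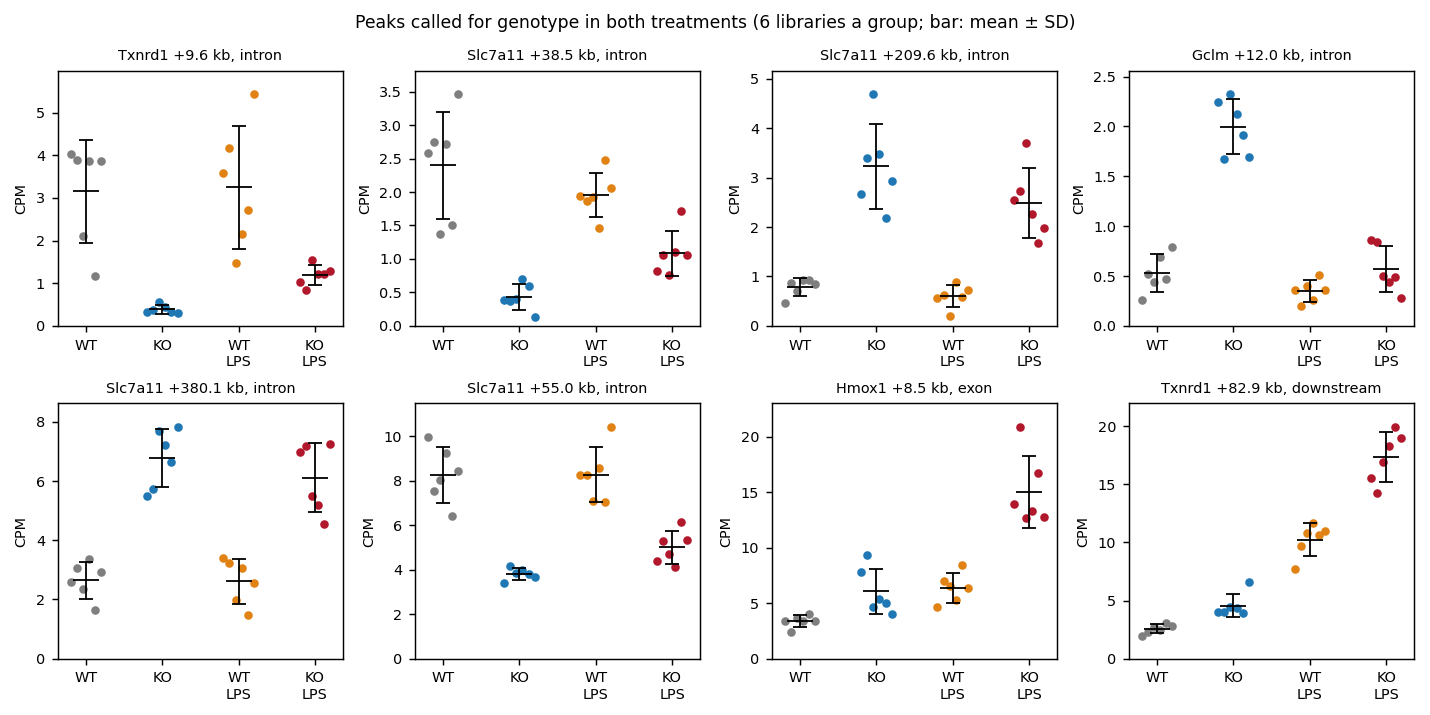
Points are the CPM of each library at 8 of the 15 peaks that were DARs for genotype in the same direction in both treatments, for WT and AhR-KO (KO) without and with LPS; long bars are means and short bars ± 1 SD of 6 libraries. Txnrd1 at 9.6 kb and Slc7a11 at 38.5 and 55 kb are lower in AhR-KO, and the others are higher, with the 2 genotypes of the Slc7a11 peak at 209.6 kb fully apart.

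Some genotype differences were called in 1 treatment only. The Gclc peak over a coding exon at 33.7 kb (chr9:77788108-77788338) had 0.465, 1.22 and 1.92 CPM in WT unstimulated and 0.174, 0.291 and 0.424 in AhR-KO unstimulated, a difference of -2.08 ± 0.32 (edgeR, adjusted p = 2.26e-06). With LPS the medians were 0.358 and 0.306, and the difference was -0.51 ± 0.34. This peak was called in 2 of 6 WT unstimulated and 1 of 6 WT LPS libraries, and in 0 of 6 of each AhR-KO group. The Gclm peak 7.1 kb upstream (chr3:122237663-122239185) had medians of 3.33 CPM in WT and 6.54 in AhR-KO under LPS, with no overlap and a difference of 1.0 ± 0.10 (adjusted p = 8.01e-10). Without LPS its difference was 0.56 ± 0.12, under 1.5-fold. The Srxn1 peak 3.2 kb upstream differed by 0.94 ± 0.16 with LPS and 0.58 ± 0.23 without, and the Bach1 peak at 29.4 kb (chr16:87728278-87728468) by 0.91 ± 0.19 and 0.11 ± 0.27. The Srxn1 and Bach1 peaks were each called in 2 of 6 AhR-KO LPS libraries and 0 of 6 in each other group. The interaction, which tests whether the difference depended on treatment, was called at the Gclc exon and not at the other 3 peaks. It was 0.43 ± 0.16 at Gclm, 0.37 ± 0.28 at Srxn1 and 0.80 ± 0.33 at Bach1 (edgeR, adjusted p = 0.0547, 0.41 and 0.0911).

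The interaction called 10 peaks, and 7 of them are described here. At Gclm, 2 intronic peaks ran opposite ways. The one at 7.4 kb (chr3:122252531-122253465) had medians of 0.978 and 0.991 CPM in WT and AhR-KO without LPS, and 1.96 and 4.32 with it. LPS raised it by 0.93 ± 0.15 in WT and 2.08 ± 0.14 in AhR-KO, with an interaction of 1.16 ± 0.21 (edgeR, adjusted p = 0.000285). The one at 12 kb (chr3:122257332-122257804) had medians of 0.494 and 2.02 without LPS and 0.359 and 0.493 with it. AhR-KO unstimulated stood alone there, at 1.68 to 2.33 CPM against at most 0.861 in the other 3 groups, and the interaction was -1.15 ± 0.36 (adjusted p = 0.0269). That interaction was lost without WT LPS replicate 5 or WT unstimulated replicate 1 (-1.03 in both, adjusted p = 0.0578 and 0.0507). The difference of 0.72 ± 0.26 with LPS was lost without WT replicate 2 or 4 or AhR-KO replicate 1 or 2 (0.56 to 0.65, adjusted p = 0.0538 to 0.0985), and when only the 2 groups were fitted (0.70, adjusted p = 0.058).

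At the Slc7a11 peak at 38.5 kb and the Txnrd1 peak at 9.6 kb, the lower level in AhR-KO was smaller with LPS, with interactions of 1.66 ± 0.34 and 1.61 ± 0.45 (edgeR, adjusted p = 0.00109 and 0.0142). LPS raised them in AhR-KO by 1.33 ± 0.28 and 1.61 ± 0.37, and the changes in WT were -0.33 ± 0.20 and -0.00 ± 0.24. The interactions at the Gclc coding exon (1.57 ± 0.49), at a Bach1 intron 27.3 kb from the TSS (chr16:87726023-87726439, 0.87 ± 0.27) and at an S1pr5 exon upstream of Keap1 (chr9:21244407-21245192, -0.60 ± 0.19) were each lost when certain single libraries were left out. For Gclc these were AhR-KO LPS replicates 4 and 6 (1.43 and 1.46, adjusted p = 0.0573 and 0.0524), and for Bach1 AhR-KO LPS replicate 2 and WT unstimulated replicate 1 (0.78 and 0.74, adjusted p = 0.0531 and 0.0544). For the S1pr5 exon, any 1 of 7 libraries took it under 1.5-fold (-0.58 to -0.54): WT unstimulated replicates 2 and 6, AhR-KO unstimulated replicates 5 and 6, WT LPS replicate 6, and replicates 2 and 6 of AhR-KO with LPS.

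Among genes that work with these 9, edgeR called start-site peaks in the glutathione list. From 6 lists, 40 of 46 genes had a tested TSS peak: partners and controllers of NRF2, glutathione, thioredoxin and peroxiredoxin, quinone and NADPH metabolism, haem and iron, and superoxide and peroxide. All calls were in the glutathione list, where 11 peaks were tested, and edgeR called 0 of the 29 peaks of the other 5 lists in any comparison. At an unadjusted p under 0.05 it counted 14, 10, 14, 16 and 8 of these 29 for genotype without and with LPS, LPS in WT and AhR-KO, and the interaction, and DESeq2 called 1, 0, 0, 0 and 1. With LPS in WT, 3 were lower and 1 higher, against 7.35% and 4.87% of all TSS peaks, and in AhR-KO 4 were lower and 0 higher, against 11.9% and 5.39%. Mgst1, a membrane-bound glutathione transferase, fell by 0.90 and 1.16 on the log2 scale in WT and AhR-KO, Gsta3, a soluble one, by 0.98 and 1.36, and Ggt5, which cleaves glutathione conjugates, by 0.65 and 0.81. Gpx1, a glutathione peroxidase, fell by 0.64 in AhR-KO, and its value in WT was -0.30 ± 0.07, under 1.5-fold. For genotype, 1 peak was higher and 0 lower without LPS (2.28% and 4.71% of all TSS peaks), and 1 and 0 with it (1.92% and 6.3%), both at the gene start of Gpx4, the lipid peroxide reductase, at group means of 0.321 to 1.58 CPM, which is a very weak peak. Its interaction was the 1 call of that test, at -1.14 ± 0.36, where 2.55% of all TSS peaks were called lower and 1.26% higher.

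The TSS peaks most like that of Nfe2l2 over the 24 libraries, by Pearson's r of log2 CPM among 13122 genes, were those of Ptpn6 (0.942), Smg1 (0.910) and Atox1 (0.898). For Hmox1 they were those of Morc2a (0.855), Abcf3 (0.851) and Aasdh (0.850). The points share library and depth, and neither gene was called in any comparison, so these values describe small shifts between libraries.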

How the data were processed

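ATAC-seq was analysed in 24 libraries from 4 groups of 6, and the study's methods give 6 animals per group in 1 experiment. Groups and replicate numbers were taken from the sample descriptions. The authors deposited a table of raw counts in consensus peaks, made on mm10 by the nf-core atacseq pipeline (bcl2fastq 2.20.0, MACS2). Per the file headers, featureCounts 2.0.1 counted read pairs with a required overlap fraction of 0.2. The authors also deposited broad peaks per library with a fold enrichment (a ratio) and a −log10 q-value, called without pooling; these were used only to count libraries with a peak. All count columns matched 1 library by name. The aligner's version is not given in the sources used here.

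Peaks were placed on the 9 genes with GENCODE vM21. Counts of all peaks were fitted with edgeR 4.0.16 in R 4.3.3 (filterByExpr by group, TMM, trended dispersion, robust quasi-likelihood) in 1 model over the 4 groups, and p-values were two-sided and adjusted by the Benjamini-Hochberg method over all 174193 tested peaks. The DAR thresholds, 0.05 for the adjusted p and 1.5 for the fold, were those of the study's methods. SE is the log2 fold change divided by the root of the F value, and levels are CPM over the TMM-normalised total. The fit was tested on simulated data. Depth of 8.54 to 34.6 M counts in peaks per library sets the precision, which for peaks under 1 CPM is low.

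Named peaks were, per gene, the TSS peak, the DAR with the smallest p in each comparison and every DAR for genotype with 1 direction in both treatments, which gave 40. Motifs were searched in the central 300 bases with pysam 0.24.0 on the mm10 sequence. RefSeq's promoter table (GRCm38.p6) matched 7 of the 9 genes, and none was printed. Alternatives were RLE scaling, DESeq2 1.42.0, no filter, a replicate block, fits of only the groups compared, a 5 kb window, a fold of 2 and each library left out, and for peak calls a −log10 q of at least 2 or an overlap of 50%. Library pairs within groups differed by more than sampling noise, with a lowest chi-square per degree of freedom of 1.27. The genes, lists and rules were chosen with earlier results of these data known.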

Additional observations from a re-analysis of the deposited data

Results flagged for a closer look

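The edgeR interaction test called 7 of the 40 named peaks, which flagged them. A call in this test was itself a ground for naming a peak, so 7 of 40 is not read as a share. Among the 148 peaks it called 5.41% higher and 1.35% lower, against 5.83% and 4.58% of all tested peaks. As log2 interactions the 7 were 1.66 for the Slc7a11 intron at 38.5 kb, 1.61 for the Txnrd1 intron at 9.6 kb, 1.57 for the Gclc coding exon, 1.16 for the Gclm intron at 7.4 kb, 0.87 for the Bach1 intron at 27.3 kb, -0.60 for the S1pr5 exon near Keap1 and -1.15 for the Gclm intron at 12 kb. Those at the Gclc exon, the Bach1 intron, the S1pr5 exon and the Gclm intron at 12 kb were each lost without certain single libraries.

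Single libraries that stood apart from the other 5 of their group by Dixon's gap test were found in 7 of 160 groups (4.375%), where chance alone flags about 1 in 20. WT LPS replicate 3 had 3.59 CPM at the Nfe2l2 intron at 23.7 kb, against 2.26 to 2.55. AhR-KO unstimulated replicate 2 had 4.27 CPM at the Keap1 intron at 3.9 kb, against 3.18 to 3.56, and the lowest value at the Srxn1 peak 3.2 kb upstream, 0.541 against 1.14 to 1.40. AhR-KO LPS replicate 5 had 5.70 CPM at the Slc7a11 exon at 73.3 kb, against 3.85 to 4.45, and 1.71 at the Slc7a11 intron at 38.5 kb, against 0.768 to 1.11. AhR-KO unstimulated replicate 5 had 33.5 CPM at the Slc7a11 TSS peak, against 29.97 to 30.95, and replicate 6 had 6.57 at the Txnrd1 peak beyond the gene's end, against 3.97 to 4.48. The 7 values came from 5 libraries. Without AhR-KO LPS replicate 5, the Slc7a11 exon was no longer called for genotype with LPS (0.53 on the log2 scale, under 1.5-fold). The other calls named at these peaks held without the library in question.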

How the results depend on the processing

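Of 92 calls at the named peaks, 80 were kept under every alternative run and 12 were lost under at least 1, and 0 reversed. Many of these peaks were named because they had the smallest p of their gene in a comparison, or were called in both treatments. The share kept is therefore set in part by that choice and does not describe the other DARs among the 148 peaks. Counts of DARs among the 148 peaks stayed within 1.5 times under every alternative but a fold threshold of 2, which left 8 for genotype without LPS, 7 with LPS, 44 and 52 for LPS in WT and AhR-KO, and 6 for the interaction, fewer by construction. With 1 library left out, the counts ran from 20 to 25, 25 to 33, 68 to 72, 78 to 85 and 7 to 11 in the same order. The split of lower and higher DARs moved for genotype without LPS from 8 and 16 to 6 and 20 with RLE scaling and 5 and 20 with DESeq2, and for the interaction from 2 and 8 to 4 and 8 and to 4 and 7. The shares over all tested peaks moved the same way, as the report gives for RLE. The cause was not tested. With a replicate block the counts were 25, 31, 68, 80 and 10. Same-numbered libraries had correlations of deviations from -0.13 to 0.29, and in no comparison were all 6 pairs over 0.1, so the numbers were not taken to pair the libraries. Unstimulated and LPS libraries came closest in WT, with 5 of 6 pairs over 0.1 (0.04 to 0.29), against 2 of 6 in AhR-KO, while WT and AhR-KO had 0 of 6 without LPS and 2 of 6 with it. Pairing of unstimulated and LPS libraries within a genotype therefore stays possible. The replicate block did not model it, as it joined WT and AhR-KO libraries of the same number. Of the 12 lost calls, 7 were lost under 4 or more alternatives. Besides those given in the report, a Gclc peak 9.5 kb upstream lost its call for genotype with LPS without WT LPS replicate 6 (0.58), the Bach1 intron at 27.3 kb its unstimulated call without WT unstimulated replicate 1 (-0.57), and the Gclm intron at 12 kb its call for LPS in WT without any 1 of 7 libraries (-0.66 to -0.48), with DESeq2 (-0.65), with the replicate block (-0.66) and with only the 2 groups fitted (-0.64). Named peaks had 636 library calls, 597 at a −log10 q of at least 2 and 465 at an overlap of at least 50%. Peaks under 1 CPM rest on few counts in the library of 8.54 M.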
